A study of Homo sapiens with 6 samples.

Results

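The comparison described here sets the input RNA of HEK293T cells labelled PRMT1 inhibitor against the input RNA of the same cells labelled PRMT4 inhibitor. HEK293T cells are of human embryonic kidney origin and express the large T antigen of the virus SV40. The study had 6 libraries in all, 1 input library and 1 library of ribosome footprints for each of 3 treatments: a PRMT1 inhibitor, a PRMT4 inhibitor and the vehicle DMSO. The libraries were chosen by their labels alone, as the 2 inputs of inhibitor-treated cells out of the 6 libraries, and no DMSO library enters the ratio. All groups share the cell line, and the labels name no compound, dose or length of treatment. Ribosome-protected RNA is the description given to inputs and footprints alike, and the labels do not say how input RNA was made. Of 60420 gene identifiers, 9067 had a mean of at least 5 TPM, the length-scaled share of transcripts, over the 2 inputs and were compared, 8163 of them protein-coding.

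PRMT1 is the enzyme that places most of the asymmetric dimethyl marks on arginines of human proteins, many of them in the glycine- and arginine-rich stretches of RNA-binding proteins. PRMT4, also called CARM1, methylates a different set, among them histone H3, transcription coactivators and splicing factors. Input RNA in ribosome profiling stands for the message level, against which the footprints, the fragments that ribosomes protect, are read. A direct comparison of the 2 inhibitor inputs asks where the messages of cells given the one inhibitor differ from those of cells given the other, without resting on the vehicle library.

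Each ratio below is log2((TPM + 1)/(TPM + 1)) with the PRMT1 label on top, minus the median over protein-coding genes, so a positive value means a higher share in the input labelled PRMT1 inhibitor. Before that subtraction the median was 0.19, because protein-coding genes held 38.7% of all TPM under the PRMT1 label and 33.4% under the PRMT4 label. With 1 library a side there is no replicate error and no test, and every value describes these libraries and not the treatments. TPM set beside DMSO below are not centred, so they also depend on how much of each library other RNAs took. The abundant RNA RN7SK had 15769 TPM in the DMSO input. It had 52493 TPM under the PRMT1 label and 81934 TPM under the PRMT4 label. The 2 inputs listed 30576 and 30860 genes above 0. Of 7 marker genes of the HEK293 line, 1 passed the filter, and the 7 summed to 16.9 TPM under the PRMT1 label and 11.3 TPM under the PRMT4 label. The 9 markers of blood, liver, mesenchymal and squamous cells summed to 4.97 and 4.31 TPM with no member above 2.54 TPM, and HBB, KRT5 and KRT14 were listed at 0 in both. The inhibitors act on proteins, so the messages of their targets cannot check the labels.

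The labels of the input pair and of the footprint pair went against each other in direction. Across the 6878 protein-coding genes that passed the filter in both pairs, which share no library, the input ratio and the footprint ratio had opposite signs for 64.6%. The gene with the largest difference, HMOX1, was far lower under the PRMT1 label in input and far higher under it in footprints. Whether an input or a footprint library carries the wrong inhibitor name, or whether messages and their ribosome occupancy differ, cannot be told apart from these libraries. For that reason every library below is named as labelled, and footprint values stand beside the input values they bear on.

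Protein-coding genes lay close together in the 2 inputs. Their ratios had a standard deviation across genes of 0.31, and their quartiles were -0.20 and 0.21. At least 2-fold higher under the PRMT1 label were 14 protein-coding genes, 0.172% of those compared, and at least 2-fold lower were 12, or 0.147%. At a fold of 1.5 the counts were 256 higher (3.14%) and 213 lower (2.61%). The balance between them rests on the scaling, with 876 and 64 without centring and 87 and 115 once GC content and length were fitted out. Over all gene types, 52 genes passed 2-fold on the higher side (0.574%) and 82 on the lower side (0.904%). Of those 82, 41 were small nucleolar RNAs (snoRNAs), which guide the chemical modification of ribosomal RNA, and 12 were protein-coding. Of the 52, 16 were small nuclear RNA genes or copies, 14 were protein-coding and 5 were snoRNAs.

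**Figure D1:**
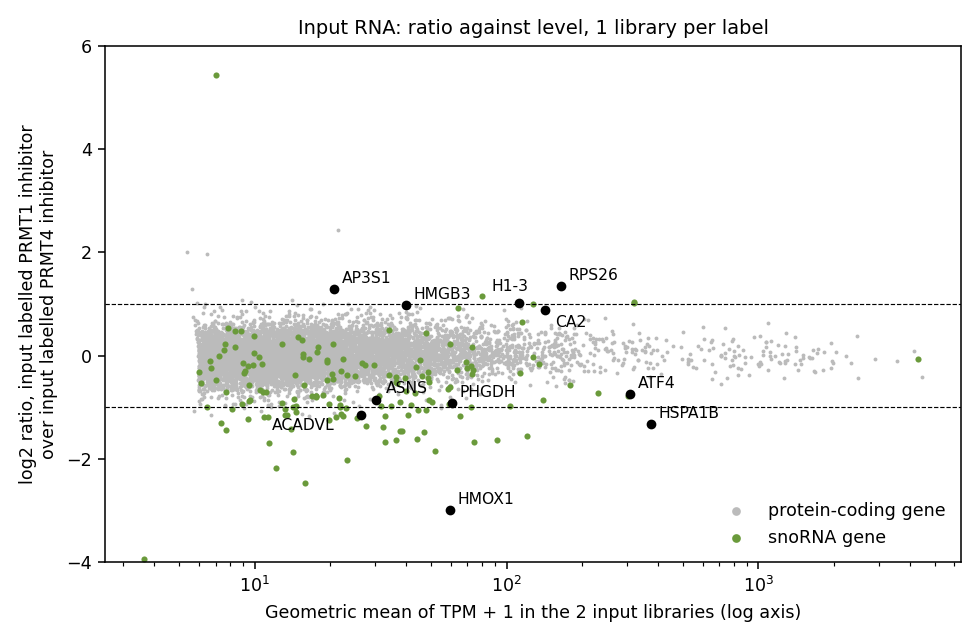
The log2 ratio of the input labelled PRMT1 inhibitor over the input labelled PRMT4 inhibitor (vertical axis) is plotted against the level, the geometric mean of TPM + 1 in the 2 inputs (log axis). Each grey point is a protein-coding gene and each green point a snoRNA gene, black points are named protein-coding genes, and the dashed lines mark 2-fold. HMOX1 lies alone among protein-coding genes at -2.99, RPS26 and AP3S1 lie above the upper line, and green points below the lower line outnumber those above the upper one, 41 against 5.

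HMOX1, heme oxygenase 1, which breaks down heme and is a target of the oxidative stress factor NRF2, had the lowest ratio of any protein-coding gene. It stood at 21.6 TPM in the input labelled PRMT1 inhibitor, against 156.5 TPM in the input labelled PRMT4 inhibitor, a ratio of -2.99 or 7.95-fold lower. The DMSO input listed 7.53 TPM, so both inhibitor inputs were above the vehicle. In footprints HMOX1 had 642 TPM under the PRMT1 label and 93.9 TPM under the PRMT4 label, a ratio of 2.93, nearly the mirror image of the input value.

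Other NRF2 targets had far smaller differences, in both directions. The list had 18 members past the filter, with a median ratio of -0.06, 9 above 0 and 9 below, beside 49.1% above 0 and 50.9% below 0 among all genes compared. GCLM, which encodes a subunit of the enzyme that starts glutathione synthesis, was the next lowest with 10.9 TPM under the PRMT1 label and 15.2 TPM under the PRMT4 label, a ratio of -0.64, and was at 0.90 in footprints. PIR, an iron-containing nuclear protein, was at -0.51 in input and 0.89 in footprints. These were, with HMOX1, the 3 of 16 members at least 1.5-fold higher in footprints (7.76% of all genes there). PRDX1, a peroxide-reducing peroxiredoxin, was the highest at 400 TPM and 284 TPM, a ratio of 0.30, and TXN, thioredoxin, followed at 0.25. Among 16 iron-handling genes the median was 0.05. HMOX1 was again the lowest there and the only member of either list at least 2-fold lower. BLVRB, a biliverdin reductase, came next with 40.2 TPM under the PRMT1 label and 52.0 TPM under the PRMT4 label, a ratio of -0.55.

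Genes of the integrated stress response were lower under the PRMT1 label in input. This pathway slows general translation by phosphorylation of eIF2 while the message of the transcription factor ATF4 is translated more, and ATF4 in turn raises genes of amino acid synthesis and uptake. Of 30 genes on the list, 25 passed the filter. Their median ratio was -0.63, against -0.01 for all genes compared. Below 0 were 24 of the 25 (50.9% of all genes), at least 1.5-fold lower were 14 (4.26% of all genes), and 1, SLC7A1, was at least 2-fold lower. ATF4 itself had 255 TPM under the PRMT1 label and 374 TPM under the PRMT4 label, a ratio of -0.74, with 365 TPM in the DMSO input.

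The enzymes of amino acid synthesis on the list carried some of the lowest values. PHGDH, the first enzyme of serine synthesis, had 46.2 TPM under the PRMT1 label, against 76.9 TPM under the PRMT4 label and 88.6 TPM in DMSO, a ratio of -0.92. CBS, which condenses homocysteine with serine, had 41.4 TPM and 70.5 TPM under the same labels, with 69.2 TPM in DMSO and a ratio of -0.95. For both genes the PRMT4-labelled input lay nearer to the vehicle than the PRMT1-labelled input did. The list was not uniform in this, since for SLC3A2 and SLC7A5 the PRMT1-labelled input lay nearer. SLC3A2 had 56 TPM under the PRMT1 label, 78.8 TPM under the PRMT4 label and 52.1 TPM in DMSO. SLC7A5 had 5.48 TPM, 9.78 TPM and 5.93 TPM in the same order. ASNS, asparagine synthetase, stood at 23.0 TPM under the PRMT1 label and 37.3 TPM under the PRMT4 label, a ratio of -0.87. SHMT2, the mitochondrial enzyme that splits serine, was at -0.74, and PYCR1, which makes proline, at -0.69. PSPH, the last enzyme of serine synthesis, had nearly equal values of 44.1 TPM and 45.3 TPM, a ratio of -0.23.

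Amino acid transporters on the list were also lower. SLC7A1, which imports arginine and lysine, had 8.94 TPM under the PRMT1 label and 16.5 TPM under the PRMT4 label, a ratio of -1.01. SLC7A5 and SLC3A2, which together form an exchanger of large neutral amino acids, were at -0.93 and -0.68. SLC1A5, a glutamine transporter, was at -0.68. DDIT4, an inhibitor of the growth kinase complex mTORC1, had 17.04 TPM under the PRMT1 label and 27.7 TPM under the PRMT4 label, a ratio of -0.86, with 39.0 TPM in DMSO. STC2, a secreted glycoprotein, was likewise at -0.86. The transcription factor ATF3 lay nearer to 0 with 10.7 TPM and 10.9 TPM, a ratio of -0.21, and CTH, the enzyme after CBS, was at -0.13. XPOT, the export receptor of tRNA, was the 1 member above 0, at 0.02.

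**Figure D2:**
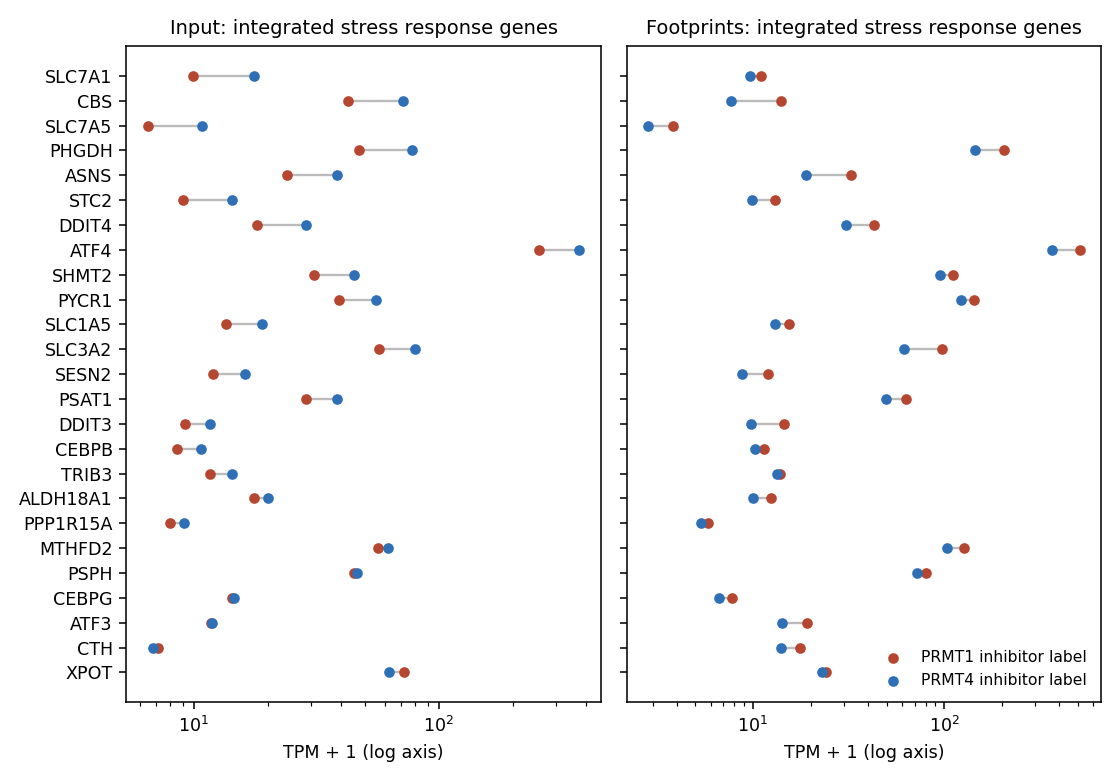
The left panel gives the TPM + 1 (log axis) of the 25 integrated stress response genes in the input labelled PRMT1 inhibitor (red) and the input labelled PRMT4 inhibitor (blue), ordered by ratio, and the right panel gives the same genes in footprints. Values are TPM before centring and a grey line joins the 2 values of a gene. Red lies left of blue for nearly all genes in input and right of blue in footprints.

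In footprints the same genes stood the other way. Of the 23 that passed the footprint filter, 23 had a ratio above 0, beside 51.3% of all 8308 genes compared there, and the median was 0.51. At least 1.5-fold higher in footprints were 9 of them, beside 7.76% of all genes. ATF4 had 509 TPM under the PRMT1 label and 366 TPM under the PRMT4 label in footprints, a ratio of 0.65. PHGDH had 203 TPM and 144 TPM, a ratio of 0.67, and CBS had 12.9 TPM and 6.67 TPM, a ratio of 1.03. These 3 genes were thus lower under the PRMT1 label as input RNA and higher under it as footprints.

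A promoter element was looked up for this list, which holds known ATF4 targets, so that some carry it is partly built in. The C/EBP-ATF response element, through which ATF4 acts with its C/EBP partners, was searched as TGATGNAA on both strands in the RefSeq promoter windows (250 bases before to 50 after the start, GRCh38.p14). It was found in 6 of the 22 compared list members that have a promoter in that table, or 27.3%, against 2.44% of the 6958 compared genes with a promoter and 4.46% of all symbols in the table (3.62% of its 35116 promoters). The other 16 of the 22 did not hold these letters in the window. The windows around the 6 matches are printed because the list as a whole was low in input, though not each of the 6 genes. The matched letters are in capitals, 5′ to 3′ along the gene. A match is not evidence of binding, and the 170 compared genes with the letters had a median ratio of -0.03.
ATF3: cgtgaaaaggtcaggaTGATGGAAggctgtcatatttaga
ASNS: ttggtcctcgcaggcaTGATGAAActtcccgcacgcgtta
SLC3A2: taatgtgcaggactccTTACATCAgctcc
SLC7A1: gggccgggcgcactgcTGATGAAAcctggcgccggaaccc
CEBPG: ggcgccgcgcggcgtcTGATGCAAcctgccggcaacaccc
SLC1A5: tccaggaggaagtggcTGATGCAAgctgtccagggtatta
The ASNS window lies at chr7:97872453-97872492 on the minus strand, and its match begins 68 bases before the start. The ATF3 window lies at chr1:212565200-212565239 on the plus strand, the SLC7A1 window at chr13:29595658-29595697 on the minus strand, and the CEBPG window at chr19:33374055-33374094 on the plus strand. The SLC1A5 window is at chr19:46784888-46784927 on the minus strand. The SLC3A2 window, at chr11:62881720-62881748 on the plus strand, holds the reverse complement of the motif, 37 bases after the start and near the end of the table's window. Their input ratios were -0.21 for ATF3, -0.87 for ASNS, -0.68 for SLC3A2, -1.01 for SLC7A1, -0.22 for CEBPG and -0.68 for SLC1A5. CEBPG encodes a C/EBP protein that pairs with ATF4. The 6 promoters with the letters thus belonged both to genes near the bottom of the list and to genes with little difference.

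Aminoacyl-tRNA synthetases, the enzymes that load amino acids on tRNAs, spread over both sides of the median gene. The 20 cytosolic members had a median of -0.23, or -0.04 without centring. Below 0 were 14 (50.9% of all genes) and at least 1.5-fold lower 3 (4.26% of all genes). MARS1, for methionine, had 40.4 TPM under the PRMT1 label and 71.9 TPM under the PRMT4 label, a ratio of -1.01. GARS1, for glycine, had 47.5 TPM and 72.9 TPM, a ratio of -0.80, and CARS1, for cysteine, was at -0.78. At the other end RARS1, for arginine, had 34.4 TPM under the PRMT1 label and 20.5 TPM under the PRMT4 label, a ratio of 0.53, and FARSB, a subunit of the phenylalanine enzyme, was at 0.33.

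Chaperones of the endoplasmic reticulum, which fold secreted proteins, were mixed. The 20 members had a median of -0.22, or -0.03 without centring. Below 0 were 14, against 50.9% of all genes, and 3 were at least 1.5-fold lower, against 4.26%. FKBP10, a proline isomerase that acts on collagen, had 37.1 TPM under the PRMT1 label and 59.1 TPM under the PRMT4 label, a ratio of -0.85. P4HB, protein disulfide isomerase, had 63.8 TPM and 94.0 TPM, a ratio of -0.74. HSP90B1, the Hsp90 of this compartment, was on the other side at 50.5 TPM and 38.4 TPM, a ratio of 0.19, and UGGT1, which checks the folding of glycoproteins, was at 0.21. In footprints 13 of 16 members were above 0 (51.3% of all genes there), with a median of 0.46. FKBP10 was at 1.47 in footprints, P4HB at 0.58, HSP90B1 at 0.96 and UGGT1 at 0.58. Genes of the translocon and of glycosylation, 32 in number, had an input median of -0.02 with 16 on each side of 0. Within it DDOST, a subunit of the enzyme that attaches N-linked sugars, had 19.6 TPM under the PRMT1 label and 26.2 TPM under the PRMT4 label, while SEC61G, a translocon subunit, had 132 TPM and 75.7 TPM. The members of these lists thus lay on both sides of the median gene.

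Genes that p53 induces were lower under the PRMT1 label as well. The large T antigen binds p53 in these cells, and the list is given as a set of known target genes. Of its 20 compared members, 17 were below 0 (50.9% of all genes), 6 at least 1.5-fold lower (4.26%) and 2 at least 2-fold lower (0.904%). The median was -0.40, or -0.21 without centring and -0.13 among members with a mean of at least 20 TPM. CDKN1A, the cell cycle inhibitor p21, had 10.7 TPM under the PRMT1 label, against 22.03 TPM under the PRMT4 label and 12.9 TPM in DMSO, a ratio of -1.17. PHLDA3, a repressor of the kinase AKT, had 6.82 TPM and 13.3 TPM with 7.25 TPM in DMSO, a ratio of -1.06. For both genes the PRMT1-labelled input lay nearer to the vehicle. The largest message of the list, CCNG1, cyclin G1, was at 0.26 with 215 TPM under the PRMT1 label and 157 TPM under the PRMT4 label, and TRIAP1, an apoptosis inhibitor, at 0.22. In footprints 15 of 18 members were above 0 (51.3% of all genes there), with a median of 0.36. CDKN1A there had 35.7 TPM under the PRMT1 label and 21.3 TPM under the PRMT4 label.

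Lipid synthesis genes lay a little below the median gene. The 29 members had a median of -0.24, or -0.05 without centring. Below 0 were 21 (50.9% of all genes) and at least 1.5-fold lower 4 (4.26% of all genes). SREBF1, the transcription factor that drives fatty acid synthesis, had 3.81 TPM under the PRMT1 label and 8.31 TPM under the PRMT4 label, a ratio of -1.14. FADS1, a fatty acid desaturase, was at -0.86, and FASN, fatty acid synthase, at -0.84. The cholesterol enzymes MSMO1 and CYP51A1 were slightly above 0, at 0.16 and 0.18. Enzymes of the sterol branch lay between -0.58 for DHCR7, which makes the last step to cholesterol, and the 0.18 of CYP51A1.

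Several genes outside these groups were among the lowest. HSPA1B, an inducible Hsp70 chaperone, had 253 TPM under the PRMT1 label and 552 TPM under the PRMT4 label, a ratio of -1.31, with 505 TPM in DMSO. Of 29 chaperones and heat shock proteins of other compartments it was the 1 member at least 1.5-fold lower, and the list had a median of 0.10. ACADVL, the mitochondrial dehydrogenase of very long fatty acids, had 18.03 TPM and 35.7 TPM with 22.2 TPM in DMSO, a ratio of -1.14. FLNA, filamin A, which links actin filaments, had 10.2 TPM under the PRMT1 label and 20.4 TPM under the PRMT4 label, a ratio of -1.13. The actin list around it had a median of 0.02 over 35 members. MAN2C1, a cytosolic mannosidase, had 14.1 TPM and 27.5 TPM, a ratio of -1.11. TMEM94 was at -0.90 and PKD1, polycystin 1, at -0.98. The other protein-coding genes at least 2-fold lower were HYPK, a partner of an N-terminal acetyltransferase, and NFATC4, a calcineurin-dependent transcription factor. Both had under 12 TPM in either input. HSPA1B, PKD1 and CBS have near-identical copies or pseudogenes elsewhere in the genome, so the authors' counting could have split their reads.

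Among genes higher under the PRMT1 label, RPS26, a protein of the small ribosomal subunit, had 279 TPM under the PRMT1 label, against 95.5 TPM under the PRMT4 label and 229 TPM in DMSO, a ratio of 1.35. AP3S1, a subunit of the adaptor complex that sorts cargo to lysosomes, had 33.5 TPM and 11.3 TPM with 33.8 TPM in DMSO, a ratio of 1.30. H1-3, a linker histone, had 169 TPM and 72.4 TPM with 243 TPM in DMSO, a ratio of 1.02. In each of these 3 the input labelled PRMT4 inhibitor was the lowest of the 3 inputs. The highest protein-coding ratio with a mean of at least 20 TPM belonged to AL035425.2, at 52.3 TPM under the PRMT1 label and 7.64 TPM under the PRMT4 label, a ratio of 2.43. In footprints AL035425.2 had 14.8 TPM and 5.14 TPM under the same labels, a ratio of 1.54, so its direction was kept there.

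Next in order by size came genes of several kinds. HMGB3, a high mobility group protein that bends DNA, had 58.9 TPM under the PRMT1 label and 25.5 TPM under the PRMT4 label, a ratio of 0.98. DEK, a chromatin protein, had 64.4 TPM and 28.5 TPM, a ratio of 0.96. SUB1, a transcription coactivator, had 167 TPM and 76.6 TPM, a ratio of 0.92. SMN2, which encodes the survival of motor neuron protein, was at 0.95, MIX23 at 0.94, CSRP2, a LIM domain protein, at 0.93, and CHUK, a kinase of the NF-kappaB pathway, at 0.90. RBIS, LYAR and UTP23, which act in the nucleolus on ribosome assembly, were among the 14 protein-coding genes at least 2-fold higher. They were picked with their values known, and no member of the ribosome biogenesis list passed 2-fold. With GC content and length fitted out they were at 0.53, 0.78 and 0.73, and UTP23 was low, at 8.60 TPM and 3.18 TPM. RBIS had 34.5 TPM under the PRMT1 label and 14.5 TPM under the PRMT4 label, and LYAR had 27.2 TPM and 11.3 TPM. RPS26 and SMN2 have pseudogenes or a near-identical copy, so their values are uncertain to that extent.

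Ribosome biogenesis factors as a list leaned the same way, by small amounts. Of 65 compared members, 52 were above 0 (49.1% of all genes), with a median of 0.24. Only 2 were at least 1.5-fold higher (3.77% of all genes). BRIX1, needed for the large subunit, had 31.4 TPM under the PRMT1 label and 15.2 TPM under the PRMT4 label, a ratio of 0.81. PNO1, an assembly factor of the small subunit, had 26.1 TPM and 14.6 TPM, a ratio of 0.61. At the low end NLE1 had 23.2 TPM and 25.1 TPM, a ratio of -0.30, and FTSJ3, a ribosomal RNA methyltransferase, was at -0.28. The share at least 1.5-fold higher was near that of all genes, so what distinguished the members was the number above 0 and not the size of the difference. In footprints 57 of 64 members were below 0 (48.7% of all genes), with a median of -0.29.

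DNA replication genes had a median of 0.23 over 56 members, with 45 above 0 (49.1% of all genes) and 5 at least 1.5-fold higher (3.77% of all genes). CDC6, which loads the replicative helicase, had 43.4 TPM under the PRMT1 label and 21.1 TPM under the PRMT4 label, a ratio of 0.82. RFC3, a clamp loader subunit, had 27.8 TPM and 14.9 TPM, a ratio of 0.66. POLD2, a subunit of DNA polymerase delta, was the lowest with 58.7 TPM and 73.3 TPM, a ratio of -0.51. Mitosis genes had a median of 0.11 over 45 members, 28 of them above 0. It was 0.01 once GC content and length were fitted out, with 24 above 0 and 21 below, and -0.08 among members with a mean of at least 20 TPM. SPC25, a kinetochore protein, was the highest with 23.3 TPM under the PRMT1 label and 10.3 TPM under the PRMT4 label, a ratio of 0.91. CDK1, the mitotic kinase, was at 0.82, and its partner CKS1B was the lowest at -0.49. In bulk RNA, fewer cells in a stage of the cell cycle and less of these messages per cell cannot be told apart.

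Genes of small nuclear ribonucleoprotein assembly, the Sm, LSm and SMN complex genes, had a median of 0.27. Above 0 were 25 of 32 (49.1% of all genes). Sm proteins are themselves methylated on arginine before the SMN complex loads them on small nuclear RNAs. SNRPG, an Sm ring protein, had 337 TPM under the PRMT1 label and 177 TPM under the PRMT4 label, a ratio of 0.73. LSM10, which belongs to the ring of the U7 particle, had 16.9 TPM and 16.8 TPM, a ratio of -0.19. The 26 hnRNP genes, which bind nascent messages, had a median of 0.14 with 19 above 0 (49.1% of all genes). HNRNPH2 was the highest at 0.62 and HNRNPUL1 the lowest at -0.41. The 25 SR splicing factors and their kinases had a median of 0.08, which turned to -0.06 with 9 of 25 above 0 after the same fit. SRRM1, a coactivator of splicing, had 47.3 TPM under the PRMT1 label and 23.4 TPM under the PRMT4 label, a ratio of 0.79.

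Zinc finger repressors with a KRAB domain, which silence transposable elements, were all on one side. Of 60 on the list, 18 passed the filter and 18 were above 0 (49.1% of all genes). They ran from 0.07 for ZNF37A to 0.61 for ZNF100 and ZNF320, with a median of 0.29. ZNF100 had 8.87 TPM under the PRMT1 label and 4.67 TPM under the PRMT4 label. The transcripts of these 18 were low in GC, with a median of 37.9%, a property that moved with the ratio and is taken up below. After adjustment for GC and length their median was 0.08, with 12 of 18 above 0.

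The arginine methyltransferases and their partners differed little. None of the 18 compared members was 1.5-fold higher or lower, and the median was -0.04. Over all genes 3.77% were that much higher and 4.26% lower, so the count says little for a list of this size. PRMT1 had 90.7 TPM under the PRMT1 label, 86.1 TPM under the PRMT4 label and 136 TPM in DMSO, a ratio of -0.12. CARM1, the gene of PRMT4, had 22.8 TPM, 23.6 TPM and 32.0 TPM in the same order, a ratio of -0.24. The widest members were RIOK1, a partner of PRMT5, at 0.53, and AHCY, which clears the methylation by-product S-adenosylhomocysteine, at -0.33. Known CARM1 substrates had a median of -0.03 over 23 genes, with FUBP1, a DNA- and RNA-binding regulator, at 0.63 and MED12, a Mediator subunit, at -0.59. Proteins with arginine- and glycine-rich motifs had a median of 0.10 over 33 genes, with G3BP2, a stress granule protein, at 0.74 and CIRBP, the cold-inducible RNA-binding protein, at -0.46.

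Lists of abundant messages had medians nearer to 0. The 46 large-subunit ribosomal proteins had 23 members above 0 and 23 below, and lay between -0.28 for RPL13 and RPL36 and 0.67 for RPL21. The 33 small-subunit proteins had a median of 0.02, and RPS26 was the 1 member at least 2-fold higher. RPS2 had 4140 TPM and 4819 TPM, a ratio of -0.41. Both ribosomal lists thus sat at the centre while single members differed. The 77 nuclear genes of oxidative phosphorylation had a median of 0.12 and the 77 mitochondrial ribosomal proteins 0.09, each with 53 above 0, beside 49.1% of all genes. The 36 proteasome subunits had a median of 0.05 with 21 above 0, and the 38 initiation factors 0.08 with 25 above 0. Within them ATP5F1C, a subunit of ATP synthase, was at 0.71, MRPL33 at 0.88, PSMA2 at 0.74, and EIF4EBP1, an inhibitor of cap binding, at -0.65. Glycolysis enzymes had a median of -0.17 over 15 genes, although LDHA, lactate dehydrogenase, was at 0.60 with 251 TPM under the PRMT1 label and 144 TPM under the PRMT4 label. That median was 0.02 without centring and 0.004 after the GC adjustment. Centring subtracts 0.19, so any list median between -0.19 and 0 is above 0 without it, and such small medians carry no direction.

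**Figure D3:**
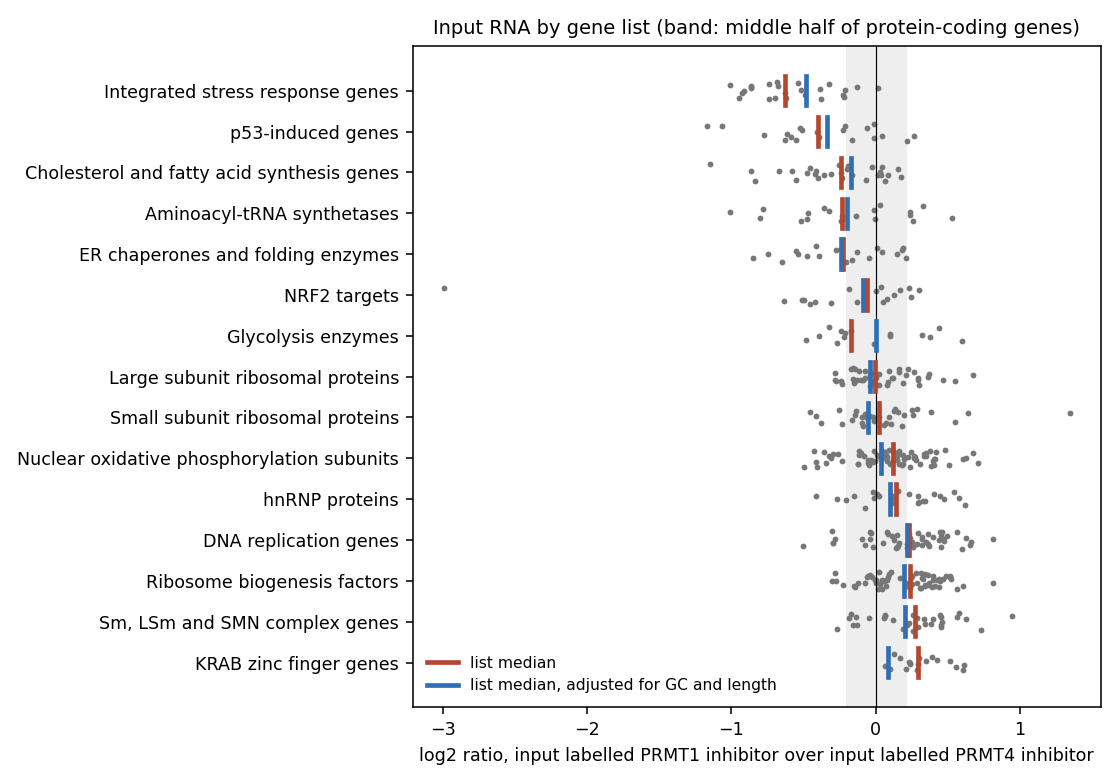
Each grey point is a gene of the named list, placed by its log2 ratio of the input labelled PRMT1 inhibitor over the input labelled PRMT4 inhibitor. The red bar is the list median and the blue bar the median adjusted for GC content and length. The grey band spans the quartiles of protein-coding genes, -0.20 to 0.21. Integrated stress response genes lie furthest left. For KRAB zinc finger genes the blue bar lies inside the band while the red bar lies outside it. The same holds for ribosome biogenesis factors, Sm, LSm and SMN complex genes, aminoacyl-tRNA synthetases and cholesterol and fatty acid synthesis genes.

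Histone genes were near the centre apart from H1-3. The 37 replication-dependent core histones had a median of -0.08, from -0.83 for H4C12 to 0.39 for H4C3. Of 5 linker histones, H1-3 was at 1.02, while H1-2, the most abundant, had 1183 TPM under the PRMT1 label and 1045 TPM under the PRMT4 label, a ratio of -0.01. CA2, carbonic anhydrase 2, had 206 TPM and 97.1 TPM with 350 TPM in DMSO, a ratio of 0.89, and was the furthest of the 10 solute and pH transport genes. MYC, the growth regulator, was at 0.43 with 124 TPM under the PRMT1 label and 80.1 TPM under the PRMT4 label. AMD1, which makes the donor for polyamine synthesis, was at 0.79 and was the highest of 10 polyamine genes, whose median was 0.20.

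Small nucleolar RNAs were lower under the PRMT1 label. H/ACA snoRNAs guide the conversion of uridine to pseudouridine, and C/D snoRNAs guide methylation of the ribose. The 157 compared had a median of -0.61 with 27 above 0 (49.1% of all genes). Of them, 41 were at least 2-fold lower (0.904% of all genes). H/ACA members had a median of -0.88 over 68 genes, with 20 at least 2-fold lower and 0 at least 2-fold higher. C/D members had a median of -0.39 over 83 genes, with 20 at least 2-fold lower and 5 higher. SNORA65 had 43.7 TPM under the PRMT1 label, 123 TPM under the PRMT4 label and 31.1 TPM in DMSO, a ratio of -1.67. SNORA68 had 6.20 TPM, 34.0 TPM and 1.92 TPM in the same order, a ratio of -2.47. SNORA6 had 11.3 TPM, 42.7 TPM and 0.50 TPM, a ratio of -2.02. In these 3 the PRMT4-labelled input was the highest of the 3 inputs.

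The end that defines the H/ACA class, an ACA triplet close to the 3′ end, is shown in capitals for SNORA65 and SNORA6 in the GENCODE release 29 transcripts, where 3 bases follow it in both. SNORA65 is on chromosome 9 and SNORA6 on chromosome 3.
SNORA65: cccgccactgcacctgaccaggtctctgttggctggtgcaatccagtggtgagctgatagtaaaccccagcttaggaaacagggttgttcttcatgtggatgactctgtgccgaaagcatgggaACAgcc
SNORA6: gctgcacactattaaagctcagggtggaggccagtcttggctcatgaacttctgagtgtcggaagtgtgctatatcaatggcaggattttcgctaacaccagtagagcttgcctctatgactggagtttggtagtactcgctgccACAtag
Among C/D snoRNAs, SNORD10 had 28.4 TPM under the PRMT1 label and 91.1 TPM under the PRMT4 label, a ratio of -1.84. SNORD58C was listed at 48.8 TPM under the PRMT1 label and at 0 under the PRMT4 label, and SNORD58B had 127 TPM and 48.9 TPM, a ratio of 1.16. The long non-coding RNAs that host snoRNAs in their introns did not follow the snoRNAs. Over 27 host genes the median was 0.02, with SNHG22 the lowest at -1.14 and SNHG30 the highest at 0.56. In footprints the 117 snoRNAs past the filter had a median of 1.62. There snoRNAs held 3.79% of all TPM under the PRMT1 label and 1.03% under the PRMT4 label, while in input they held 1.06% and 1.11%.

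Other structured RNAs differed one by one. RN7SK, the RNA that holds the elongation kinase P-TEFb inactive, was the most abundant, with 52493 TPM under the PRMT1 label and 81934 TPM under the PRMT4 label, a ratio of -0.83. Since TPM is a share of a fixed total, this 1 gene took over 5% of each input. TERC, the RNA of telomerase, had 234 TPM and 324 TPM, a ratio of -0.66, and MALAT1, a nuclear long non-coding RNA, had 157 TPM and 269 TPM, a ratio of -0.96. RNU5B-1, a U5 small nuclear RNA, stood on the other side at 1992 TPM under the PRMT1 label and 778 TPM under the PRMT4 label, a ratio of 1.16. RNU5A-1 was at 0.90. RNU7-1, the U7 RNA that guides histone message processing, had 146 TPM and 22.02 TPM, a ratio of 2.48, and RNY4, a Y RNA, was at 0.80.

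Copies of the U6 spliceosomal RNA gave the widest ratios of all, and these do not stand for genes. RNU6-1 was listed at 145 TPM under the PRMT1 label and 0 under the PRMT4 label, while RNU6-2 had 0.96 TPM and 121 TPM. In the GENCODE transcripts 7 copies are identical over all 107 bases, so reads cannot be assigned to one of them. Summed over the 7 copies, U6 stood at 1632 TPM under the PRMT1 label and 1457 TPM under the PRMT4 label, a ratio of -0.03. Over all genes and copies with an RNU6 symbol the sums were 2752 TPM and 2103 TPM, a ratio of 0.20. RNU6-11P, which had the highest ratio of all, is not among the 7 and was listed at 223 TPM under the PRMT1 label and 0 under the PRMT4 label. The single copies thus differed while the sum of the 7 lay at the median gene.

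The ratio followed the GC content of the transcript. Across protein-coding genes Spearman's rho between the input ratio and the GC content of the longest transcript was -0.58, a correlation across 8163 genes of the same 2 libraries, which are not independent replicates. In 5 bins of equal size from low to high GC, the median ratio was 0.24, 0.13, 0.02, -0.12 and -0.23. The bin lowest in GC held 145 genes at least 1.5-fold higher under the PRMT1 label and 4 lower, and the bin highest in GC held 1 higher and 125 lower. Length showed no such relation, with a rho of -0.01, nor did level, with 0.11. In footprints the same 5 bins had medians between -0.02 and 0.02, and rho with GC was 0.06. Genes rich in GC were thus lower under the PRMT1 label in input and not in footprints.

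**Figure D4:**
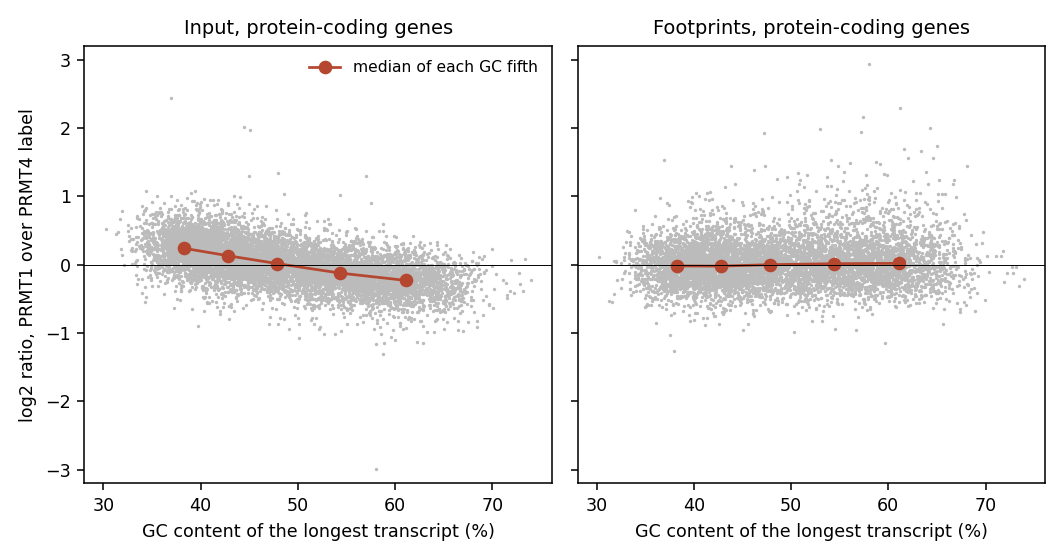
The log2 ratio under the PRMT1 label over the PRMT4 label (vertical axis) is plotted against the GC content of the longest transcript in percent, for input (left) and footprints (right). Grey points are protein-coding genes and red points the medians of 5 bins of equal size, which run down across the bins from 0.24 to -0.23 in input and stay within 0.02 of 0 in footprints.

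A linear fit on GC content and length over protein-coding genes was subtracted to see which of the results above keep their size. It lowered the standard deviation of the ratio to 0.25. The fitted ratio was again centred on the protein-coding median, so protein-coding genes lie evenly above and below 0. HMOX1 kept a value of -2.87. The integrated stress response list kept a median of -0.48 with 25 of 25 below 0, and the p53 list kept -0.34 with 20 of 20 below 0. These lists are not separate, since SESN2 is on both. Ribosome biogenesis factors were at 0.19 with 58 of 65 above 0, and DNA replication genes at 0.22 with 46 of 56 above 0. Other small medians shrank or turned, with mitosis genes at 0.01, oxidative phosphorylation genes at 0.03, initiation factors at 0.01 and SR factors at -0.06. PKD1, whose transcript is rich in GC, went to -0.42, while ASNS went to -0.96. The snoRNAs had a median of -1.02, for which the fit runs outside the lengths of the messages it was made on. Which property of the libraries or the cells the GC relation comes from was not tested.

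Set against the footprints, the input ratios tended to run in the opposite direction, with opposite signs for 64.6% of protein-coding genes. Across 6878 protein-coding genes Pearson's r was -0.45 and Spearman's rho -0.42. With GC content and length fitted out of both ratios, r was -0.46. Of the 154 genes at least 1.5-fold lower in input that could be read in footprints, 145 or 94.2% were above 0 there, against 49.5% of the 6878. Past 1.5-fold there were 77 on the higher side (7.76% of all genes compared in footprints) and 0 on the lower side (2.44%). Of the 229 at least 1.5-fold higher in input, 189 or 82.5% were below 0 in footprints, against 50.5% of the 6878. At least 1.5-fold lower there were 23 (2.44% of all genes compared in footprints), and 4 were at least 1.5-fold higher (7.76%). The shares of 2.44% and 7.76% are over genes of all types and not over protein-coding genes alone.

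Among 3015 protein-coding genes with a mean of at least 20 TPM that passed both filters, 32 were past 1.5-fold in both pairs with opposite direction and 2 with the same direction. Lower in input and higher in footprints were 21 of the 32. They include HMOX1, ACADVL, CBS, PHGDH, ASNS, MARS1, GARS1, ATF4, SLC3A2 and DDIT4. TSC2, an inhibitor of mTORC1 chosen after its values were seen, is also among them, at -0.85 in input and 0.71 in footprints. Higher in input and lower in footprints were 11, among them RPS26, H1-3, CA2, SUB1 and MIX23. CA2 had 195 TPM in footprints under the PRMT1 label and 429 TPM under the PRMT4 label, a ratio of -0.96, against 0.89 in input. H1-3 had 113 TPM and 215 TPM in footprints, a ratio of -0.76, against 1.02 in input.

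**Figure D5:**
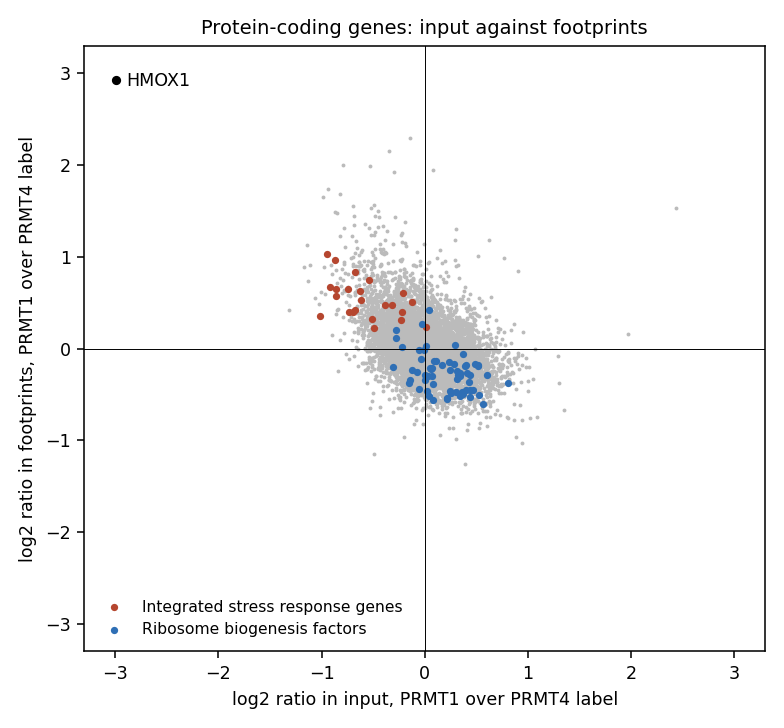
Each point is a protein-coding gene, placed by its log2 ratio of the PRMT1 label over the PRMT4 label in input (horizontal axis) and in footprints (vertical axis). Integrated stress response genes (red) lie mostly in the upper left, ribosome biogenesis factors (blue) mostly in the lower right, and HMOX1 (black) lies at -2.99 and 2.93.

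The libraries themselves did not show which names belong together. Over 8020 genes the correlation of log2(TPM + 1) was 0.97 between the 2 inputs and 0.98 between the 2 footprint libraries. Between kinds it was 0.81 for the footprints labelled PRMT1 inhibitor with the input labelled PRMT1 inhibitor and 0.81 with the input labelled PRMT4 inhibitor. The footprints labelled PRMT4 inhibitor had 0.81 with the input labelled PRMT1 inhibitor and 0.79 with the input labelled PRMT4 inhibitor. The pair labelled PRMT4 inhibitor thus had the lowest value between kinds, 0.79 beside 0.81 for the others. Whether this small difference bears on the names was not tested.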

How the data were processed

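Input RNA and ribosome footprints of HEK293T cells were compared under the submitters' labels. The authors deposited TPM, the length-scaled share of transcripts, with 1 column per library and 2 decimals. In the submitters' processing notes stand RSEM 1.2.22, STAR 2.4.2a, Bowtie 1.1.2, cutadapt 1.18 and GRCh37.p13, with no role for any of them. Depth is unknown, since TPM does not keep it, and intervals from counting could not be given. A library's TPM add to a fixed total, so an abundant small RNA lowers all other genes.

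From 60461 identifiers, 41 Y pseudoautosomal copies at 0 were dropped. GENCODE release 29 gave names and types for 56157, with the GC content and length of the longest transcript. Its genome build is later than GRCh37.p13, so no coordinates were taken from it. The promoter windows and their coordinates are those of RefSeq on GRCh38.p14, and were matched by symbol.

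Ratios were log2((TPM + 1)/(TPM + 1)), PRMT1 label over PRMT4 label, for genes with a mean of at least 5 TPM over the 2 libraries, centred on the protein-coding median (pandas 2.3.3, numpy 2.4.6, statsmodels 0.14.6, scipy 1.17.1 and matplotlib 3.10.9 under Python 3.11.15). The pseudocount of 1 understates differences of low genes. With 1 library per group no test was made. The ratio and call steps were tested on simulated data. Alternatives changed the pseudocount, the filter, the centring, a level trend (lowess) and a linear GC and length fit.

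Genes were named by size: with a mean of at least 20 TPM, the 12 highest and 12 lowest protein-coding genes and the 5 highest and 5 lowest of other types, then up to 2 members at each end of a list with at least 5 compared members, and PRMT1 and CARM1. Any further gene in the text was picked with its values known. The comparison and its 48 gene lists were chosen with earlier results of these data known, so no list stands as independent support. A few genes and sequences that these rules name are not reported here.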

Additional observations from a re-analysis of the deposited data

Results flagged for a closer look

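Each of the following went one way in input and the other way in footprints under the same labels, with 1 library a side, so the difference between the pairs was not tested. HMOX1 had a log2 ratio, PRMT1 label over PRMT4 label, of -2.99 in input and 2.93 in footprints. ACADVL had -1.14 in input and 1.13 in footprints. CBS had -0.95 and 1.03, and FKBP10 had -0.85 and 1.47. The median of the integrated stress response list was -0.63 in input and 0.51 in footprints.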

How the results depend on the processing

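No paired analysis was possible because each label has 1 library of each kind and no replicate number joins libraries. At least 2-fold higher were 52 genes and at least 2-fold lower 82. Those counts became 102 and 168 with a mean of at least 1 TPM, 27 and 49 with at least 20 TPM, 151 and 189 with no filter, 113 and 47 with no centring, and 29 and 134 after the GC and length adjustment, and 45 were lower with a pseudocount of 5. Of all 2-fold calls 38.8% were higher, against 70.6% with no centring and 17.8% after the adjustment. Protein-coding genes at least 1.5-fold higher were 256 and lower 213. They became 127 and 64 with a pseudocount of 5, 101 and 63 at 20 TPM, 876 and 64 with no centring, and 87 and 115 after the adjustment, and 677 were higher with no filter. The higher share of these calls was 54.6%, against 66.5% with a pseudocount of 5, 79.1% with no filter, 93.2% with no centring and 43.1% after the adjustment. The 41 snoRNAs at least 2-fold lower became 24 with a pseudocount of 5 and 26 with no centring. The integrated stress response median of -0.63 became -0.75 at 20 TPM, -0.53 with no filter, -0.44 with no centring and -0.48 after the adjustment. The p53 median of -0.40 became -0.29 with a pseudocount of 5, -0.13 at 20 TPM, -0.28 with no filter and -0.21 with no centring. The ribosome biogenesis median of 0.24 became 0.37 with no filter and 0.43 with no centring. Of 46 list medians, 17 changed sign with no centring, 14 at 20 TPM, 12 after the adjustment, 11 with no filter and at most 4 under the other alternatives. With no centring and after the adjustment, most of them had been within 0.1 of 0. Those of at least 0.1 that changed sign under any alternative were in 5 lists. Glycolysis, at -0.17, became 0.024 with no centring and 0.004 after the adjustment. Mitosis genes, at 0.11, became -0.08 at 20 TPM and glucocorticoid and FOXO genes, at 0.28, became -0.701. Nuclear long non-coding RNAs, at -0.19, became 0.007 with no centring, and small structured RNAs, at 0.15, became -0.004 after the adjustment. The changes with no centring follow from the 0.19 that centring subtracts. The cause of the other changes was not tested, beyond fewer genes at the 20 TPM filter. No named gene changed direction in its call. Over genes and settings, 2028 calls were the same, 58 passed 1.5-fold only under the alternative and 117 only in the values reported. The correlation of input with footprint ratios kept its sign under all alternatives. The depth is unknown, which limits what can be said of genes near 5 TPM.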

Other observations

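Some gene groups outside the accounts above held single genes with a clear difference. Among 23 autophagy and lysosome genes, with a median of -0.04, CTSD, the lysosomal protease cathepsin D, had 8.49 TPM under the PRMT1 label and 15.4 TPM under the PRMT4 label, a ratio of -0.98. ULK1, the kinase that starts autophagy, was at -0.81. In the other direction ATG5, which acts in membrane conjugation of LC3, was at 0.59. Hypoxia-inducible genes had a median of 0.29 with 11 of 13 above 0 (49.1% of all genes). The lowest was VEGFA, the vascular growth factor, at -0.71 with 9.31 TPM under the PRMT1 label and 13.7 TPM under the PRMT4 label. BNIP3L, a mitophagy receptor, was the highest of them at 0.53. Apoptosis regulators had a median of 0.01 over 20 genes, with BBC3, the p53-induced killer PUMA, the lowest at -0.59.

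Messages encoded in mitochondria had a median of -0.04 over 10 genes in input, with MT-ATP8, a subunit of ATP synthase, at 0.90 and MT-CO2, a subunit of cytochrome oxidase, at -0.19. In footprints 4 of 4 that passed the filter were at least 1.5-fold higher under the PRMT1 label, beside 7.76% of all genes there. MT-ATP8 was among them at 0.84, the same direction as in input. Groups near the median gene in input were selenoproteins at -0.07 over 20 genes, interferon-stimulated genes at -0.04 over 8, tubulins at 0.02 over 13, polyadenylated histone variants at -0.04 over 8, P-TEFb control genes at -0.06 over 19 and immediate early genes at -0.05 over 12. JUND, an AP-1 subunit, was the lowest of the last group at -0.58, and TXNRD1, a thioredoxin reductase among the selenoproteins, was at 0.23.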
